A study of Mus musculus with 9 samples.

Results

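The genes of the mouse major histocompatibility complex (MHC) and of peptide loading were followed through 3 groups of B cells. The set holds every gene of the deposited table whose symbol begins with H2- (43 genes) and 9 genes named singly, namely B2m, Cd74, Ciita, Nlrc5, Tap1, Tap2, Tapbp, Tapbpl and Erap1. These 52 genes are 52 of 22178 listed, and 36 of them reached a mean of at least 1 TPM and were tested among 11099 such genes. TPM give each gene's share of a library's transcripts corrected for length, so that levels can be set against each other between genes. By role, the tested members are 4 class II chains, 6 class II accessory chains, 2 transactivators, 2 classical class I heavy chains, B2m, 14 nonclassical class I heavy chains, 5 peptide loading genes and 2 H2- symbols that encode no MHC chain. Of the other 16, 10 lay below a mean of 1 TPM and 6 were listed at 0 in every library.

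RNA was sequenced from B2, B2B1 and B1 cells of mice, with 3 libraries each. B2 cells, the conventional B cells of follicles, came from spleen and carry the strain label VH12B1-8/Vk4. B1 cells, found mainly in body cavities, were taken from the peritoneal cavity and carry the strain label B1-8VH12/Vk4. B2B1 cells share that tissue and strain label, and in them a switch of the B cell receptor was induced about 30 days before isolation. All mice are described as backcrossed to C57BL/6. B2 therefore differs from both other groups in tissue and strain label as well as in cell type, and these cannot be told apart. Depth cannot be read from TPM. The X-inactivation transcript Xist was near 0 (0.355 to 0.461 TPM) in 3 libraries, namely number 2 of B2 and numbers 1 and 2 of B2B1, and at 180 to 298 TPM in the other 6. Xist is made from the inactive X chromosome of female cells, so the B2 libraries and the B2B1 libraries differ in sex within their group and cannot all come from 1 animal. The labels do not state whether libraries of a group are otherwise from different mice, and in B1, where all 3 were high in Xist, the spread behind the p-values may be technical.

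MHC class II molecules are pairs of an alpha and a beta chain that show peptides from endosomes to CD4+ T cells. The invariant chain Cd74 guards their groove on the way to the endosome, DM exchanges its remnant for peptide, and DO holds DM back, mainly in B cells. Class I molecules pair a heavy chain with B2m and show peptides that the TAP transporter brings into the endoplasmic reticulum. Ciita and Nlrc5 are the transactivators of class II and class I genes. They do not bind DNA themselves but act through the factors on a shared promoter module, an X box bound by the RFX complex followed by a Y box bound by NF-Y.

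Promoter windows of RefSeq (build GRCm38.p6, 250 bases before to 50 after the start) were available for 35 members, 23 of them tested, with Cd74 left out. The letters searched on both strands were GNNACNGAT for the X box, CCAAT for the Y box, AAANNGAAA for the interferon-stimulated response element and GGGGATTCC for a kappa B site. An X box followed after 10 to 30 bases by a Y box on the opposite strand was found in 8 members and in 49 of all 32851 windows (0.149%). Those 8 are shown because the module is shared by genes that were lower in B2B1 than in B2 (H2-Eb1, H2-Eb2, H2-DMb1 and H2-M3) and by genes that were higher (H2-D1 and H2-Q7). Capitals mark the X box and then the Y box, read as ATTGG, and all are on the plus strand.
H2-Eb1 (chr17:34305766-34305822): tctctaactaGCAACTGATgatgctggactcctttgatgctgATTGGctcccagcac
H2-Eb2 (chr17:34325533-34325589): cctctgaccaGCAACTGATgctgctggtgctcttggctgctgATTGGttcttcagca
H2-DMb1 (chr17:34153087-34153144): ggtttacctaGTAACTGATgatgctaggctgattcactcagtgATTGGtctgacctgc
H2-D1 (chr17:35262975-35263032): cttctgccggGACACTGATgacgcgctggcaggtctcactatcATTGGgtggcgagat
H2-M3 (chr17:37270170-37270227): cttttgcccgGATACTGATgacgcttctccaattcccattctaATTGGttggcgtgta
H2-Q4 (chr17:35379495-35379552): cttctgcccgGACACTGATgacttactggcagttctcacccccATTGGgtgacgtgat
H2-Q6 (chr17:35424729-35424785): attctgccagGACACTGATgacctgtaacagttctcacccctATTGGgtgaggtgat
H2-Q7 (chr17:35439073-35439129): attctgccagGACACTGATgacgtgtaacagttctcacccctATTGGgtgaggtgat
The gap between the boxes was 23 or 24 bases in all 8. Among tested members with a window, the module stood in 3 of 8 class II and accessory genes and in 5 of 11 class I genes. Only exact letters were counted. Windows whose X box letters differ by a single base before a Y box are left out, among them those of H2-DMb2, H2-Ob and H2-K1. Y box letters alone stood in 8 of 8 and 9 of 11, against 37.4% of all windows. The kappa B letters, held by 0.250% of all windows, stood in 0 of the 8 class II and accessory genes and in 4 of the 11 class I genes (H2-K1, H2-D1, H2-Q6 and H2-Q7). They are a single exact form of the site, the form that H2-K1 holds, and related class I genes can share it. Other forms were not searched, so these counts cannot show an enrichment or a difference between the classes. The response element letters, held by 10.55% of windows, stood in 2 of 8 and 4 of 11. Members were counted when any of their windows held the letters, whereas the background is per window. H2-DMa holds Y box and response element letters in only 1 of its 2 windows, the latter at the end of a run of T. B2m, the common light chain of class I, has the response element letters AAACTGAAA 138 bases before its start and Y box letters 53 bases before it, capitalised in the 250 bases upstream of its RefSeq start on the plus strand.
B2m (chr2:122147437-122147686): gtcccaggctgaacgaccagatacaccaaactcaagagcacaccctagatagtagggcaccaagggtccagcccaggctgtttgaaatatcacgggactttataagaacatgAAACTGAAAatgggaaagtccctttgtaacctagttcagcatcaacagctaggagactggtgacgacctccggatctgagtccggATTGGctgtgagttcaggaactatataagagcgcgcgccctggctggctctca

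Markers of other cell types differed between the groups and stand here before the results they touch. The summed level of 8 B cell markers was 10719 to 10946 TPM in B2, 9553 to 10813 TPM in B2B1 and 9449 to 11584 TPM in B1. The 13 macrophage markers in the table summed to 2.84, 1.97 and 1.83 TPM in the B2 libraries, 276, 72.8 and 102 TPM in B2B1 and 24.6, 59.3 and 51.9 TPM in B1. B2B1 library 1 was thus the highest, mainly through Lyz2 at 181 TPM. Of the 6 tested markers, 6 were higher in B2B1 than in B2, where 21.0% of all genes were. Emr1, which encodes the macrophage surface protein F4/80, averaged 0.384 TPM in B2, 44.0 TPM in B2B1 and 18.1 TPM in B1, and Mrc1, the mannose receptor, 0.0517, 3.69 and 4.98 TPM. The complement genes C1qa, C1qb and C1qc averaged 4.70, 5.61 and 4.66 TPM in B2B1. Csf1r, Timd4 and Vsig4 averaged 1.03, 1.02 and 1.29 TPM there, with 2.13, 2.01 and 3.13 TPM in library 1, and Cd14, Mertk and Fcgr1 had group means below 1 TPM throughout. The 9 dendritic cell markers summed to 19.5 to 21.4 TPM in B2, 5.15 to 7.55 TPM in B2B1 and 2.35 to 3.58 TPM in B1, with Itgax, Clec9a, Cd209a, Siglech and Clec10a below 1 TPM in every library. Most of the B2 sum was Flt3, which averaged 15.2 TPM there and 0.114 and 0.0552 TPM in B2B1 and B1. Zbtb46 was lower likewise (2.43, 0.765 and 0.514 TPM), and Xcr1 averaged 1.17, 1.08 and 1.19 TPM. Batf3 went the other way, at 0.196, 3.25 and 0.711 TPM, and was called higher in B2B1 than in B2. The 9 T cell markers summed to 13.6 to 16.0 TPM in B2, 21.8 to 27.0 TPM in B2B1 and 26.4 to 32.7 TPM in B1, with Cd3g, a chain of the T cell receptor complex, at 0.122, 0.373 and 7.81 TPM and Cd3e below 0.1 TPM in every library. Lck made up most of the sum in B2B1, and averaged 6.72, 17.9 and 12.4 TPM in B2, B2B1 and B1. Cd3d, at 5.10, 3.48 and 7.41 TPM, had its lowest mean in B2B1, and Cd8a averaged 1.91, 1.85 and 1.85 TPM. The 5 NK cell markers summed to 11.8 to 16.5 TPM in B2, 0.528 to 0.952 TPM in B2B1 and 0.872 to 1.25 TPM in B1, nearly all of it Prf1 in B2, with Ncr1 at 0 in the B2 libraries. Macrophages and dendritic cells can carry MHC genes at high levels, and the part of all these cell types in the results was not tested.

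In B1 against B2, 32 of the 36 tested members were lower in B1 and 0 were higher, against a background of 33.9% of all genes lower and 18.0% higher (limma, adjusted p under 0.05). Their median log2 fold change was −0.82, against −0.14 for all genes. In B2B1 against B2, 10 were higher and 17 lower, where 21.0% and 42.0% of all genes were, with a median of −0.16 against −0.19. In B2B1 against B1, the comparison within the peritoneal cavity, 19 were higher and 1 was lower, where 6.93% and 12.1% of all genes were, with a median of 0.40 against −0.056. The first 2 comparisons share the B2 libraries, so their values are given side by side and not related to each other. In bulk RNA, fewer cells of a type and less RNA per cell cannot be told apart.

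The balance of higher and lower genes depended on the scaling of TPM. With median-of-ratios scaling the share of higher genes among all called went from 34.7% to 52.1% in B1 against B2, from 33.3% to 51.6% in B2B1 against B2 and from 36.5% to 52.6% in B2B1 against B1. The medians of all genes then came to −0.0007, −0.0031 and −0.002. Members called higher and lower became 0 and 25, 15 and 13, and 21 and 1 of 36. Of all 11099 genes, 2768 and 2547, 3380 and 3171, and 1047 and 944 were then called higher and lower. Calls of named members that this or another alternative ends are given beside them. For genes of the further lists such losses are not all given.

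All 10 class II and accessory chains were lower in both peritoneal groups than in B2, with median log2 fold changes of −0.98 in B1 and −1.15 in B2B1, and between B2B1 and B1 only H2-Eb2 (higher) and H2-Ob (lower) differed. Of the 17 class I heavy and light chains, 15 were lower in B1 than in B2 and 0 higher, whereas in B2B1 8 were higher and 4 lower. Between B2B1 and B1, 13 of the 17 were higher in B2B1 and 0 lower, with a median of 0.86. H2-Q4 to H2-Q9 are near copies among which reads may be divided, so these counts can hold the same signal several times. Summed, they gave log2 fold changes of −0.88 in B1 against B2, 0.47 in B2B1 against B2 and 1.35 in B2B1 against B1. The background of all genes was 18.0% higher and 33.9% lower in B1 against B2. It was 21.0% and 42.0% in B2B1 against B2, and 6.93% and 12.1% in B2B1 against B1. Without B2B1 library 1, the one with the highest macrophage marker sum, 7 class I chains were higher and 4 lower than in B2, and 13 were higher than in B1 with 1 lower (H2-T24). Of all 11099 genes, 2063 were then higher and 4382 lower than in B2, and 559 and 926 than in B1.

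**Figure D1:**
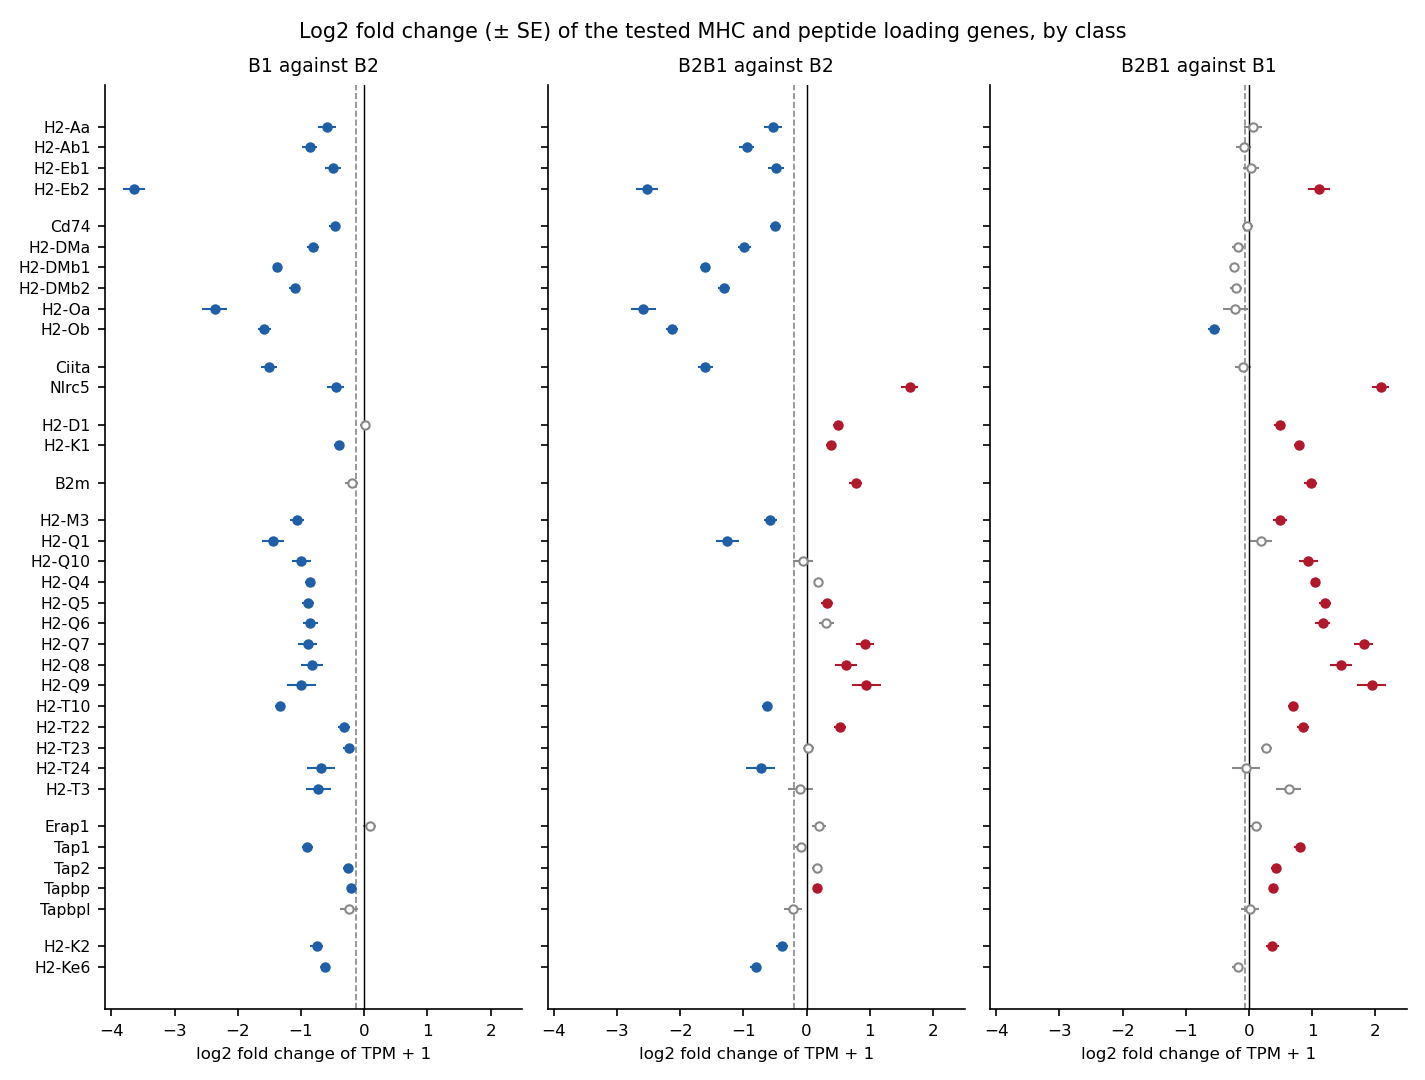
Log2 fold change of TPM + 1 with its SE for the 36 tested members by class (n = 3 libraries per group, limma), for B1 against B2, B2B1 against B2 and B2B1 against B1. Filled points were called (red higher, blue lower), open points were not, and the dashed line is the median of all genes; the class II points lie left of 0 in both comparisons with B2, and most class I points lie right of 0 in B2B1 against B1.

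The A chains and H2-Eb1 stood at 2187 TPM or more in every library, whereas H2-Eb2 was far lower. H2-Aa, the alpha chain of the A molecule (chr17:34282744-34287823, GRCm38, GENCODE M21 as for all gene positions here), was at 7710.2, 7907 and 7486 TPM in the B2 libraries, 4674, 5806 and 5597 TPM in B2B1 and 6298, 4204 and 5067 TPM in B1. The peritoneal libraries all lay below the B2 libraries and overlapped each other. Its log2 fold change was −0.59 ± 0.14 in B1 (adjusted p = 0.00701) and −0.53 ± 0.14 in B2B1 (adjusted p = 0.00946). Here and below, a difference between groups given with ± and no unit is a log2 fold change with its SE from limma. With median-of-ratios scaling the value in B2B1 was −0.32 and did not pass (adjusted p = 0.0912). H2-Ab1, its beta chain (chr17:34257689-34269419), was at 5096, 5105 and 5119 TPM in B2, 2277, 2901 and 2799 TPM in B2B1 and 3329, 2495 and 2651 TPM in B1. It separated the same way, at −0.87 ± 0.12 in B1 (adjusted p = 0.000379) and −0.95 ± 0.12 in B2B1 (adjusted p = 0.000151). The level of H2-Aa relative to H2-Ab1 was 1.46 to 1.55 in B2, 1.9996 to 2.05 in B2B1 and 1.68 to 1.91 in B1. The balance of alpha to beta chain was thus higher in every peritoneal library than in any B2 library, with no overlap between any 2 groups.

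H2-Eb1 and H2-Eb2 are beta chains of the E family, and C57BL/6 mice have no functional alpha chain gene to pair with them. H2-Eb1 (chr17:34305867-34316674) was at 3723, 3692 and 3560.1 TPM in B2, 2259.7, 2816 and 2849 TPM in B2B1 and 3029, 2187 and 2606 TPM in B1, and its peritoneal values overlapped each other but not those of B2. It was lower, at −0.50 ± 0.13 in B1 (adjusted p = 0.00919) and −0.48 ± 0.13 in B2B1 (adjusted p = 0.00924), calls that median-of-ratios scaling ended (−0.36, adjusted p = 0.0557, and −0.27, adjusted p = 0.112). H2-Eb2, its neighbour (chr17:34325665-34341412), was at 167, 167 and 133 TPM in B2, 22.9, 28.6 and 26.8 TPM in B2B1 and 15.1, 11.5 and 8.74 TPM in B1. The 3 groups did not overlap, and B1 was the lowest. Its log2 fold change of −3.64 ± 0.18 in B1 (adjusted p = 5.82e-07) had the largest size of any of the 36 tested members in any of the 3 comparisons. In B2B1 it was −2.53 ± 0.18 against B2 (adjusted p = 4.02e-06) and 1.11 ± 0.18 against B1 (adjusted p = 0.00345). H2-Eb2 stood at 3.74 to 4.53% of H2-Eb1 in B2, 0.940 to 1.02% in B2B1 and 0.335 to 0.524% in B1. The alpha chain pseudogene H2-Ea-ps averaged 0.742 TPM in B2, 0.0980 TPM in B2B1 and 0.0470 TPM in B1, below the limit for testing.

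Cd74, the invariant chain, was the most abundant listed gene in all B2 libraries and in B1 libraries 1 and 3, and ranked 2 in the other libraries, after Eef1a1. Its levels were 16492, 16065 and 16593 TPM in B2, 10991, 12419 and 11490.2 TPM in B2B1 and 13233, 10834 and 11655 TPM in B1. The peritoneal groups overlapped each other and lay below B2, at −0.47 ± 0.088 on the log2 scale in B1 (adjusted p = 0.00206) and −0.50 ± 0.088 in B2B1 (adjusted p = 0.00105). Quantile normalization reduced the B1 value to −0.074 and ended the call (adjusted p = 0.416). That scaling gives equal ranks equal values. As Cd74 ranked 1 or 2 in every library, a small value there was fixed in advance and cannot decide on the call. Relative to the summed class II chains, Cd74 was at 0.952 to 1.02 in B2, 1.02 to 1.19 in B2B1 and 1.04 to 1.22 in B1.

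The DM chains, which exchange the remnant of Cd74 for peptide, were lower in both peritoneal groups. H2-DMa, the DM alpha chain, was at 460.3, 459 and 445 TPM in B2, 208, 254 and 228 TPM in B2B1 and 294, 257 and 230.4 TPM in B1. H2-DMb2, the more abundant DM beta chain, was at 2170.1, 2063 and 2187 TPM, 803, 973 and 824 TPM and 1102, 966 and 927 TPM, and H2-DMb1 at 789, 678 and 771 TPM, 227, 244 and 261 TPM and 290.0, 276 and 292 TPM, in the same order of groups. For all 3 genes each peritoneal library lay below each B2 library. The log2 fold changes in B1 were −0.81 ± 0.097, −1.10 ± 0.090 and −1.38 ± 0.075 for H2-DMa, H2-DMb2 and H2-DMb1 (adjusted p = 0.000148, 1.42e-05 and 1.2e-06). In B2B1 they were −0.98 ± 0.097, −1.31 ± 0.090 and −1.61 ± 0.075 (adjusted p = 3.13e-05, 3.75e-06 and 4.13e-07). The beta genes share sequence, with 68.6% of the 31-base words of H2-DMb1 and 63.4% of those of H2-DMb2 found in no other gene, so reads may be split between them. Summed before the log, they gave −1.17 ± 0.080 in B1 and −1.38 ± 0.080 in B2B1 (adjusted p = 4.87e-06 and 1.43e-06).

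The DO chains, the brake on DM, were lower as well. H2-Oa, the DO alpha chain (chr17:34092340-34095234), was at 534, 593 and 536 TPM in B2, 69.7, 128 and 85.8 TPM in B2B1 and 116, 115 and 89.9 TPM in B1. Peritoneal levels were thus 0.170 (B2B1) and 0.193 (B1) of the B2 mean, and overlapped each other. The log2 fold changes were −2.58 ± 0.20 and −2.37 ± 0.20 (adjusted p = 6.63e-06 and 1.57e-05). H2-Ob, the beta chain (chr17:34238903-34254414), was at 1179, 1167 and 1103 TPM in B2, 248, 287 and 252 TPM in B2B1 and 438, 383 and 338 TPM in B1. No groups overlapped, and B2B1 was the lowest: −2.13 ± 0.096 against B2 (adjusted p = 3.37e-07) and −0.55 ± 0.096 against B1 (adjusted p = 0.00537). It was the only member called lower in B2B1 than in B1. Summed DO chains stood at 50.1, 55.0 and 48.1% of summed DM chains in the B2 libraries, 25.7, 28.2 and 25.7% in B2B1 and 32.9, 33.2 and 29.5% in B1. The ratio of summed inhibitor to summed exchanger was therefore lower in every peritoneal library than in any B2 library, and lower in B2B1 than in B1. By chain, H2-Oa over H2-DMa was 1.16 to 1.29 in B2, 0.335 to 0.504 in B2B1 and 0.390 to 0.449 in B1. The peritoneal groups thus overlapped for the alpha chains. H2-Ob over the summed DM beta chains was 0.373 to 0.426, 0.232 to 0.241 and 0.277 to 0.314 in the same order, without overlap. Because 3 libraries against 3 cannot give an exact permutation p below 0.1, such ratios were not tested.

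**Figure D2:**
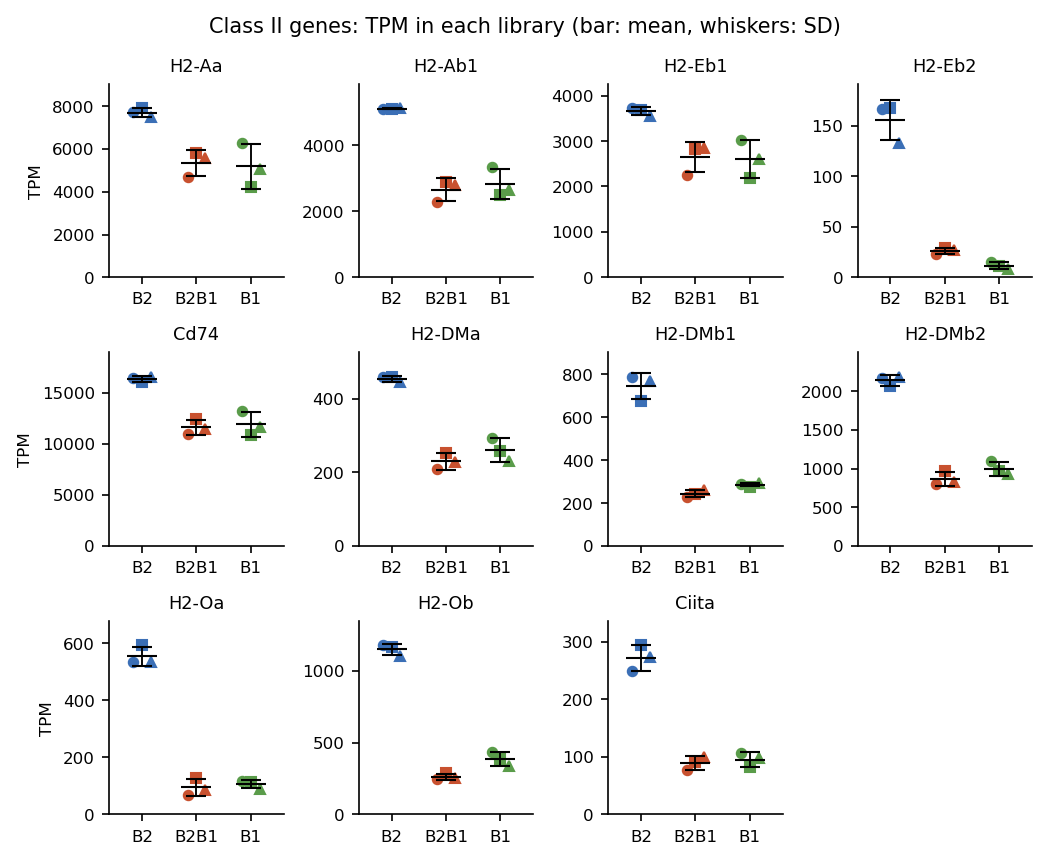
TPM of the class II chains, Cd74, DM and DO chains and Ciita in each of the 9 libraries (points, circle for library 1, square for 2, triangle for 3), with the mean (bar) and SD (whiskers) of 3 libraries per group and axes from 0. In each panel the B2 points lie above all B2B1 and B1 points, with the widest gaps for H2-Eb2, H2-Oa and H2-Ob.

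Ciita, the class II transactivator (chr16:10480059-10528418), was lower in both peritoneal groups. It was at 249, 294 and 274 TPM in B2, 76.4, 91.5 and 100.2 TPM in B2B1 and 106, 81.8 and 98.1 TPM in B1. The peritoneal means were 0.328 (B2B1) and 0.350 (B1) of the B2 mean, and the groups overlapped each other but not B2. Its log2 fold change was −1.51 ± 0.12 in B1 (adjusted p = 1.45e-05) and −1.60 ± 0.12 in B2B1 (adjusted p = 7.22e-06), with −0.093 ± 0.12 between B2B1 and B1 (adjusted p = 0.635).

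Among 14 tested genes of class II transcription, 2 were higher and 8 lower in B1 than in B2, 2 and 10 in B2B1 against B2, and 1 and 5 in B2B1 against B1. Of all genes, 18.0% and 33.9%, 21.0% and 42.0%, and 6.93% and 12.1% were higher and lower in these comparisons. The medians of the list were −0.34, −0.47 and −0.24, and those of all genes −0.14, −0.19 and −0.056. Rfx5, a subunit of the RFX complex on the X box, averaged 69.8 ± 4.32 TPM in B2, 34.1 ± 3.58 TPM in B2B1 and 35.7 ± 4.002 TPM in B1 (all such values are means ± SD over n = 3 libraries). It was lower, at −0.95 ± 0.10 in B1 and −1.02 ± 0.10 in B2B1 (adjusted p = 7.63e-05 and 3.61e-05). Pax5, the factor of B cell identity, was at 395 ± 18.2, 187 ± 18.0 and 243 ± 24.3 TPM in B2, B2B1 and B1, and lower in B2B1 than in B1 as well (−0.37 ± 0.090, adjusted p = 0.022). Prdm1, which encodes Blimp-1, a repressor of Ciita in plasma cells, was at 0.586 ± 0.157 TPM in B2 and at 14.1 ± 7.20 and 16.0 ± 7.003 TPM in B2B1 and B1. In B1 it was higher by 3.35 ± 0.39 (adjusted p = 0.000116). Irf4, a factor of B cell activation, was at 71.9 ± 1.15, 153 ± 12.4 and 112 ± 13.7 TPM, higher in B2B1 than in B2 by 1.07 ± 0.092 and than in B1 by 0.44 ± 0.092 (adjusted p = 1.3e-05 and 0.0116). Pou2af1, a B cell coactivator, was lower than in B2, at −0.81 ± 0.11 in B1 and −0.61 ± 0.11 in B2B1 (adjusted p = 0.000369 and 0.00142). Creb1, a further factor of class II promoters, was lower than in B2, at −0.75 ± 0.084 in B2B1 and −0.46 ± 0.084 in B1 (adjusted p = 6.89e-05 and 0.0017). The NF-Y subunits Nfyc and Nfya were lower in B2B1 than in B1, at −0.33 ± 0.065 and −0.38 ± 0.094 (adjusted p = 0.00881 and 0.023). With the Xist state of the library as a covariate, 0 genes of the list were lower in B2B1 than in B1.

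Of 10 tested genes that process or turn over class II molecules, 3 were higher and 4 lower in B1 than in B2, 3 and 3 in B2B1 against B2, and 4 and 1 in B2B1 against B1 (medians −0.13, 0.083 and 0.20). Beside the background of 18.0% and 33.9%, 21.0% and 42.0%, and 6.93% and 12.1%, the counts in both comparisons with B2 are near what all genes show. Ctss, the protease that degrades Cd74 in B cells, was at 973 ± 30.5, 1014 ± 119.8 and 640.2 ± 49.7 TPM in B2, B2B1 and B1. It was lower in B1 than in B2 (−0.60 ± 0.090, adjusted p = 0.000523) and higher in B2B1 than in B1 (0.66 ± 0.090, adjusted p = 0.00171). Ctsb, a further endosomal protease, was at 38.2 ± 1.33, 120.1 ± 16.1 and 108 ± 16.0 TPM, higher in B1 by 1.46 ± 0.12 and in B2B1 by 1.62 ± 0.12 (adjusted p = 1.8e-05 and 6.97e-06). March1, a ubiquitin ligase that shortens the life of class II at the surface, was at 169 ± 8.25, 99.2 ± 16.2 and 159 ± 10.49 TPM. Cd83, which opposes March1, was at 118 ± 1.71, 215 ± 2.59 and 128 ± 18.7 TPM. In B2B1 March1 was lower and Cd83 higher than in either other group: −0.77 ± 0.11 and 0.86 ± 0.089 against B2 (adjusted p = 0.000239 and 4.19e-05), and −0.68 ± 0.11 and 0.75 ± 0.089 against B1 (adjusted p = 0.00327 and 0.00085). Ctsh was higher in B1 than in B2 by 0.45 ± 0.072 and Lgmn lower, at −1.65 ± 0.30 (adjusted p = 0.000767 and 0.00158). In B2B1 against B2 they were 0.48 ± 0.072 and −0.76 ± 0.30 (adjusted p = 0.000374 and 0.0493). Ctsl, with 4.68 ± 0.571 TPM in B2 against 1.43 ± 0.314 TPM in B2B1, was lower, at −1.23 ± 0.15 (adjusted p = 9.25e-05). It was lower in B1 than in B2 as well, at −0.80 ± 0.15 (adjusted p = 0.00163). Ctsz was higher in B2B1 than in B1 by 0.24 ± 0.063 (adjusted p = 0.0305).

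Classical class I genes and B2m were higher in B2B1 than in both other groups. H2-K1 (chr17:33996017-34000347) was at 2889.6, 2646 and 2843 TPM in B2, 3866, 3503 and 3544 TPM in B2B1 and 2286, 2148 and 1906 TPM in B1. No groups overlapped, with B2B1 the highest and B1 the lowest: 0.38 ± 0.080 for B2B1 against B2, 0.79 ± 0.080 for B2B1 against B1 and −0.41 ± 0.080 for B1 against B2 (adjusted p = 0.00282, 0.000443 and 0.00267). Quantile normalization ended the call against B2 (0.19, adjusted p = 0.067). H2-D1 (chr17:35262730-35267499) was at 2298, 2043 and 2318 TPM in B2, 3262, 2947 and 3169 TPM in B2B1 and 2458, 2099 and 2166 TPM in B1. The B2 and B1 values overlapped (0.013 ± 0.082, adjusted p = 0.909), and the B2B1 values lay above both, by 0.49 ± 0.082 and 0.48 ± 0.082 (adjusted p = 0.0007 and 0.00482). H2-L averaged 0.429, 0.646 and 0.368 TPM in B2, B2B1 and B1 and was not tested, and the H2b haplotype of C57BL/6 has no such gene. The ratio of H2-K1 to H2-D1 was 1.23 to 1.30 in B2, 1.12 to 1.19 in B2B1 and 0.880 to 1.02 in B1, without overlap.

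B2m, the light chain (chr2:122147686-122153083), was at 3863, 3621 and 3723 TPM in B2, 7599, 5729 and 6049 TPM in B2B1 and 3194, 3410.3 and 3165 TPM in B1. B2B1 library 1 was the highest, and the other B2B1 libraries also lay above all B2 and B1 libraries. The log2 fold changes were 0.78 ± 0.10 against B2 and 0.98 ± 0.10 against B1 (adjusted p = 0.000164 and 0.000474), and over the 9 fits that leave out a library they stayed between 0.66 and 0.86 and between 0.85 and 1.06. In B1 against B2 the value of −0.20 ± 0.10 did not pass (adjusted p = 0.131), although the groups did not overlap. It passed with quantile normalization, with B1 and B2 fitted alone and without B2B1 library 1 (adjusted p = 0.0341, 0.0378 and 0.0282). Relative to all class I heavy chains, B2m stood at 0.385 to 0.417 in B2, 0.485 to 0.577 in B2B1 and 0.420 to 0.491 in B1.

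Nlrc5, the class I transactivator (chr8:94434356-94527272), had the highest fold change in B2B1 of any of the 36 tested members, against either other group. It was at 43.6, 41.3 and 42.8 TPM in B2, 131, 132 and 139.8 TPM in B2B1 and 30.0, 39.6 and 24.7 TPM in B1. The B2B1 mean was 3.15 times that of B2 and 4.27 times that of B1, with no overlap, 1.63 ± 0.14 and 2.08 ± 0.14 on the log2 scale (adjusted p = 1.24e-05 and 8.46e-05). In B1 against B2 Nlrc5 was lower, at −0.45 ± 0.14 (adjusted p = 0.0226), a call lost under the median-of-ratios (−0.31) and quantile (−0.32) scalings and without B2 library 1 or 3 or B1 library 1 or 3 (−0.44, −0.45, −0.43 and −0.30). The ratio of Ciita to Nlrc5 was 5.71 to 7.12 in B2, 2.07 to 3.97 in B1 and 0.584 to 0.717 in B2B1, so that only in B2B1 libraries did the class I transactivator exceed that of class II.

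**Figure D3:**
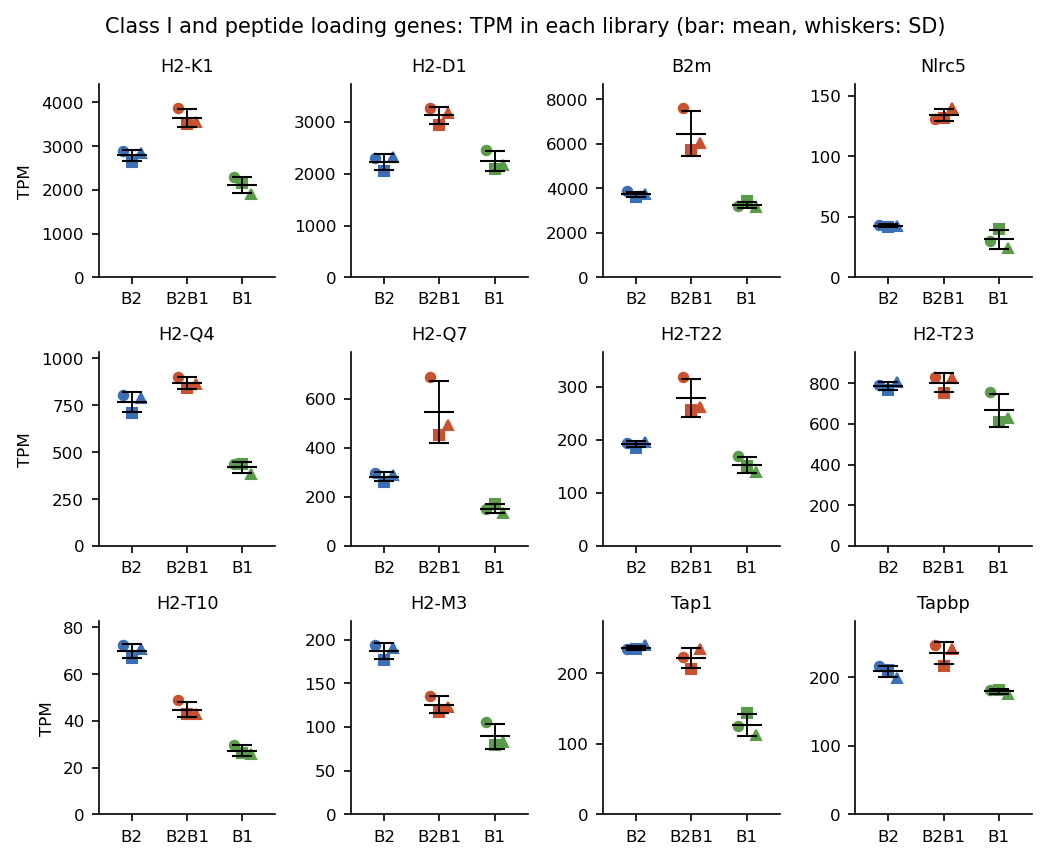
TPM of class I chains, Nlrc5, Tap1 and Tapbp in each of the 9 libraries (points, circle for library 1, square for 2, triangle for 3), with the mean (bar) and SD (whiskers) of 3 libraries per group and axes from 0. B2B1 points lie highest for H2-K1, H2-D1, B2m, Nlrc5, H2-Q7 and H2-T22, and B2 points for H2-T10 and H2-M3.

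The nonclassical heavy chains of the Q, T and M regions present narrower sets of ligands, or none, and several are seen by NK or gamma delta T cells. All 14 tested were lower in B1 than in B2. In B2B1 against B2, 5 were higher (H2-Q5, H2-Q7, H2-Q8, H2-Q9 and H2-T22), 4 were lower (H2-Q1, H2-T10, H2-T24 and H2-M3) and 5 did not pass. Against B1, 10 were higher in B2B1 and 0 lower. The background was 33.9% of all genes lower in B1 than in B2. In B2B1 it was 21.0% higher and 42.0% lower against B2, and 6.93% and 12.1% against B1. The genes of the Q region are near copies of each other. Of the 31-base words of their transcripts, 42.1% (H2-Q5) to 60.8% (H2-Q7) stood in no other gene for H2-Q4, H2-Q5, H2-Q6 and H2-Q7, and H2-Q8 and H2-Q9 have no locus on the reference chromosomes of GENCODE M21. How reads were divided among them is uncertain, so their sum is given first. H2-Q4 to H2-Q9 together were at 3188, 2653 and 3118 TPM in B2, 4581, 4133 and 3711 TPM in B2B1 and 1703, 1753 and 1427 TPM in B1. No groups overlapped, and the sum was lower in B1 than in B2, at −0.88 ± 0.11, and higher in B2B1 by 0.47 ± 0.11 (adjusted p = 0.000218 and 0.00542). Against B1 it was higher in B2B1 by 1.35 ± 0.11 (adjusted p = 0.000187).

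Within that sum, H2-Q7, which encodes the lipid-anchored Qa-2 antigen (chr17:35439155-35443773), was at 296, 261 and 290.5 TPM in B2, 689, 451 and 494 TPM in B2B1 and 151, 170.2 and 136 TPM in B1. Its near copy H2-Q9 was at 287, 202 and 259.6, 568, 532 and 358 and 143, 145 and 90.8 TPM in the same order. Both had means in B2B1 that were 1.93 and 1.95 times those in B2, with log2 fold changes of 0.92 ± 0.15 and 0.95 ± 0.23 (adjusted p = 0.000613 and 0.0059). H2-Q6 and H2-Q8, a further such pair, averaged 463 ± 14.8 and 470.0 ± 84.8 TPM in B2 and 577 ± 59.5 and 725 ± 132 TPM in B2B1. H2-Q8 was higher by 0.63 ± 0.18 (adjusted p = 0.0134). H2-Q6, at 0.31 ± 0.12, missed the threshold (adjusted p = 0.0514) and passed it in 8 of the 20 alternatives. H2-Q4 averaged 767 ± 52.2, 869.6 ± 31.6 and 420.4 ± 29.7 TPM in B2, B2B1 and B1. Its value of 0.18 ± 0.073 in B2B1 against B2 did not pass (adjusted p = 0.0525) and came to 0.39 after median-of-ratios scaling, which passed, but to −0.077 after quantile normalization, which did not. H2-Q5, a polymorphic pseudogene in the annotation, averaged 754 ± 83.0, 938 ± 77.3 and 407 ± 27.6 TPM. Its call in B2B1 against B2 (0.32 ± 0.097, adjusted p = 0.0179) was lost with quantile normalization (0.070) and without B2 library 2 or B2B1 library 1 (0.22 and 0.26). In B1 against B2 the log2 fold changes of these 6 genes ran from −0.99 to −0.83, and in B2B1 against B1 from 1.05 to 1.94; all were called.

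H2-Q1 and H2-Q10, the outer genes of the region, were low. H2-Q1 was at 7.22, 9.43 and 5.90 TPM in B2, 3.01, 2.22 and 2.38 TPM in B2B1 and 2.33, 1.63 and 2.33 TPM in B1, lower in both peritoneal groups, at −1.25 ± 0.18 (B2B1) and −1.45 ± 0.18 (B1; adjusted p = 0.000281 and 0.000172). H2-Q10, a secreted chain made mainly by liver, was at 9.75, 7.92 and 11.7 TPM, 10.7, 8.30 and 8.96 TPM and 4.18, 5.08 and 3.89 TPM in B2, B2B1 and B1. Its B1 values lay below all others, at −0.99 ± 0.15 against B2 (adjusted p = 0.00065), while B2B1 and B2 overlapped. Within the Q region, H2-Q1 was thus the only gene called lower in B2B1 than in B2.

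H2-T22 and H2-T10 encode close relatives that bind no peptide and are ligands of gamma delta T cell receptors. H2-T22 was at 194, 185 and 196 TPM in B2, 319, 256 and 262 TPM in B2B1 and 169, 151 and 139.6 TPM in B1. H2-T10, a polymorphic pseudogene in the annotation, was at 72.3, 66.7 and 70.6 TPM, 48.7, 42.8 and 42.9 TPM and 29.8, 26.3 and 25.7 TPM. In B2B1 against B2 they therefore went in opposite directions, 0.53 ± 0.097 and −0.63 ± 0.080 (adjusted p = 0.00121 and 0.000138), each without overlap. They share much sequence, with 32.6% and 35.8% of their 31-base words found in no other gene, and their sum was higher by 0.30 ± 0.094 (adjusted p = 0.0198). Both were lower in B1 than in B2, H2-T10, at −1.33 ± 0.080 (adjusted p = 2.21e-06) and H2-T22, at −0.33 ± 0.097 (adjusted p = 0.0199). The H2-T22 call did not survive median-of-ratios scaling (−0.18), quantile normalization (−0.20) or leaving out B2 library 1, B2 library 3 or B1 library 3 (−0.32, −0.31 and −0.26).

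H2-T23 encodes Qa-1, which shows class I leader peptides to NK receptors. It was at 792, 767 and 806 TPM in B2, 833, 752 and 828 TPM in B2B1 and 758, 612 and 630.3 TPM in B1, and the B2B1 values overlapped those of both other groups. Its value in B1 against B2, −0.25 ± 0.085, was called (adjusted p = 0.0355), but the call was lost in 8 of the 20 alternatives, among them median-of-ratios scaling (−0.10). In B2B1 against B2 it was 0.027 ± 0.085 (adjusted p = 0.799) and turned with the scaling, to 0.23 (median of ratios) or −0.25 (quantile), each past the threshold (adjusted p = 0.0381 and 0.0382).

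H2-M3 encodes the chain that presents N-formylated peptides to T cells (chr17:37270220-37274484). It was at 194, 176 and 190.1 TPM in B2, 136, 117 and 123 TPM in B2B1 and 105, 79.8 and 82.9 TPM in B1. The 3 groups did not overlap and stood in that order, with −0.57 ± 0.11 for B2B1 and −1.07 ± 0.11 for B1 against B2 (adjusted p = 0.00131 and 4.56e-05). B2B1 was higher than B1 by 0.49 ± 0.11 (adjusted p = 0.0135), a call lost with the Xist state as a covariate (0.52, adjusted p = 0.0591). H2-T24 was at 120.2, 112 and 114 TPM in B2, 109, 53.9 and 56.9 TPM in B2B1 and 77.3, 65.7 and 72.4 TPM in B1. B2B1 library 1 lay near the B2 level and the others below the B1 values, and without that library H2-T24 was lower in B2B1 than in B1 (−0.37, adjusted p = 0.0223), while over all libraries the value was −0.045 ± 0.23. Against B2 it was lower in B1, at −0.68 ± 0.23, and in B2B1, at −0.73 ± 0.23 (adjusted p = 0.0311 and 0.0195). These calls were lost in 10 and 4 of the 20 alternatives, the latter with median-of-ratios scaling and without B2 library 1, B2B1 library 2 or B2B1 library 3 (adjusted p = 0.071, 0.0566, 0.0689 and 0.0679). H2-T3, the thymus leukemia antigen, was at 4.03 to 7.51 TPM in B2, 5.27 to 6.23 TPM in B2B1 and 2.86 to 3.54 TPM in B1, lower in B1 than in B2, at −0.73 ± 0.20 (adjusted p = 0.0132), a call lost without B2 library 1 or 3 (−0.60 and −0.61).

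Of the 5 peptide loading genes, 3 were lower in B1 than in B2 and 0 higher, 1 was higher in B2B1 than in B2 and 0 lower, and 3 were higher in B2B1 than in B1 and 0 lower. The background was 33.9% lower and 18.0% higher, 21.0% higher and 42.0% lower, and 6.93% higher and 12.1% lower. The 1 gene higher in B2B1 than in B2 is near the share of all genes. Tap1 and Tap2 are the subunits of the peptide transporter. Tap1 was at 234, 234 and 239 TPM in B2, 223, 206 and 234 TPM in B2B1 and 126, 143 and 112 TPM in B1. Every B1 library lay below every other, at −0.90 ± 0.088 against B2, and B2B1 was above B1 by 0.80 ± 0.088 (adjusted p = 4.23e-05 and 0.000586). Tap2 was at 166, 163 and 159.6 TPM, 165, 179 and 205 TPM and 136, 139 and 134 TPM in B2, B2B1 and B1. The difference of B1 from B2 was smaller there, −0.26 ± 0.076 (adjusted p = 0.0189), and that of B2B1 from B1 was 0.42 ± 0.076 (adjusted p = 0.00634). The ratio of Tap1 to Tap2 was 1.41 to 1.50 in B2, 1.14 to 1.35 in B2B1 and 0.836 to 1.03 in B1, without overlap.

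Tapbp, tapasin, bridges class I and the transporter and was at 217, 210.3 and 199.6 TPM in B2, 247, 217 and 242 TPM in B2B1 and 181, 182 and 176 TPM in B1. No groups overlapped, and the differences were small: −0.21 ± 0.063 for B1 and 0.17 ± 0.063 for B2B1 against B2, and 0.38 ± 0.063 for B2B1 against B1 (adjusted p = 0.0184, 0.0391 and 0.00389). The Tap2 and Tapbp calls in B1 against B2 were lost under the median-of-ratios (−0.11 and −0.069) and quantile scalings and without B2 library 1, B2 library 2 or B1 library 3. The Tapbp call in B2B1 against B2 was lost in 9 of the 20 alternatives. Tapbpl, a further peptide editor, and Erap1, which trims peptides in the endoplasmic reticulum, passed in no comparison. Their log2 fold changes were −0.24 ± 0.14 and 0.088 ± 0.10 in B1 against B2 and −0.22 ± 0.14 and 0.20 ± 0.10 in B2B1 against B2.

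Of 12 tested genes of class I folding and peptide supply, 2 were higher and 2 lower in B1 than in B2, 6 and 1 in B2B1 against B2, and 5 and 0 in B2B1 against B1, where the background was 18.0% and 33.9%, 21.0% and 42.0%, and 6.93% and 12.1%. The medians of the list were −0.055, 0.29 and 0.20. Psmb9 and Psmb8, subunits of the immunoproteasome encoded beside Tap1 and Tap2, averaged 294 ± 14.6 and 382 ± 7.42 TPM in B2, 471 ± 44.3 and 469 ± 9.97 TPM in B2B1 and 261 ± 17.2 and 322 ± 18.5 TPM in B1. They were higher in B2B1 than in B2 by 0.67 ± 0.082 and 0.30 ± 0.055 (adjusted p = 0.000107 and 0.00133) and than in B1 by 0.85 ± 0.082 and 0.54 ± 0.055 (adjusted p = 0.000323 and 0.000409). Psme2, a proteasome activator subunit, averaged 276 ± 10.8, 453 ± 35.1 and 283 ± 22.4 TPM, higher in B2B1 by 0.71 ± 0.078 against B2 and 0.68 ± 0.078 against B1 (adjusted p = 5.86e-05 and 0.000704), and its partner Psme1 was higher in B2B1 than in B1 by 0.35 ± 0.065 (adjusted p = 0.00694). Erp29, a chaperone of the endoplasmic reticulum, averaged 279.8 ± 18.4 TPM in B2 and was higher in both peritoneal groups, by 0.68 ± 0.078 in B1 and 0.85 ± 0.078 in B2B1 (adjusted p = 0.000112 and 1.91e-05). In B1 against B2, Psmb8 and Psmb10 were lower, at −0.25 ± 0.055 and −0.28 ± 0.076 (adjusted p = 0.00482 and 0.0136). Pdia3, a member of the loading complex, was higher there by 0.50 ± 0.15 (adjusted p = 0.0205). Median-of-ratios scaling left 0 genes of this list lower in B1 than in B2, which ended the calls of Psmb8 and Psmb10. Leaving out B2 library 2 or B1 library 2 left 1 gene of the list higher in B1 than in B2.

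Of 18 tested regulators of class I and of interferon responses, 1 was higher and 12 were lower in B1 than in B2, 0 and 12 in B2B1 against B2, and 7 and 2 in B2B1 against B1, where the background was 18.0% and 33.9%, 21.0% and 42.0%, and 6.93% and 12.1%. The medians of the list were −0.62, −0.37 and 0.15. Nfkb2, an NF-kappa B subunit, averaged 261 ± 14.7 TPM in B2, 133 ± 5.10 TPM in B2B1 and 51.8 ± 1.93 TPM in B1. It was lower than in B2, at −2.31 ± 0.061 in B1 and −0.96 ± 0.061 in B2B1, and higher in B2B1 than in B1 by 1.35 ± 0.061 (adjusted p = 1.7e-08, 2.37e-06 and 7.52e-06). Its partner Relb averaged 64.2 ± 5.54, 48.0 ± 2.11 and 29.1 ± 2.45 TPM, lower in B1 than in B2, at −1.11 ± 0.085, and higher in B2B1 than in B1 by 0.70 ± 0.085 (adjusted p = 9.33e-06 and 0.000917). The interferon gamma receptor chains Ifngr1 and Ifngr2 were lower in both peritoneal groups, at −1.18 ± 0.054 and −1.23 ± 0.056 in B1 and −1.40 ± 0.054 and −0.79 ± 0.056 in B2B1 (adjusted p = 3.9e-07, 3.79e-07, 1.4e-07 and 4.13e-06). Stat2 was lower than in B2, at −0.86 ± 0.11 in B2B1 and −0.96 ± 0.11 in B1 (adjusted p = 0.000115 and 8.83e-05).

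Class I-like molecules encoded outside the MHC were set beside the members. Of 5 tested, 1 was higher and 2 were lower in B1 than in B2, 1 and 2 in B2B1 against B2, and 0 and 1 in B2B1 against B1 (medians 0.017, 0.17 and −0.21). With a background of 18.0% and 33.9%, 21.0% and 42.0%, and 6.93% and 12.1%, these counts are near what all genes show. Cd1d1, which presents lipids to NKT cells, averaged 100.2 ± 4.05 TPM in B2, 33.8 ± 6.74 TPM in B2B1 and 24.1 ± 4.01 TPM in B1, lower, at −1.56 ± 0.15 in B2B1 and −2.02 ± 0.15 in B1 (adjusted p = 2.89e-05 and 8.48e-06). Fcgrt, the heavy chain of the neonatal Fc receptor, averaged 40.1 ± 4.25 TPM in B2, 2.90 ± 0.315 TPM in B2B1 and 13.9 ± 3.31 TPM in B1. It was lower in B2B1 than in B1 as well, at −1.92 ± 0.16 (adjusted p = 0.000194). Mr1, which presents microbial metabolites, was higher in B1 and B2B1 than in B2, by 0.71 ± 0.17 and 0.50 ± 0.17 (adjusted p = 0.00692 and 0.029).

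Set against each other within a library, the classes gave a different balance in each group. Class II chains summed to 16298 to 16871 TPM in B2, 9233 to 11552 TPM in B2B1 and 8897 to 12672 TPM in B1. Classical class I chains summed to 4690.0 to 5188, 6452 to 7129 and 4072 to 4744 TPM, and nonclassical chains to 3983 to 4588, 5042 to 6047 and 2389 to 2853 TPM, in the same order. The ratio of class II to classical class I was 3.22, 3.60 and 3.16 in the B2 libraries, 1.30, 1.79 and 1.68 in B2B1 and 2.67, 2.09 and 2.54 in B1. It was thus lowest in B2B1 and intermediate in B1, with no overlap. Nonclassical relative to classical class I stood at 0.884, 0.849 and 0.876 in B2, 0.848, 0.833 and 0.751 in B2B1 and 0.601, 0.636 and 0.587 in B1, so that here B1 was the lowest group. Such ratios do not change when a library is multiplied by a single factor, but quantile normalization would change them. All members together made up 5.55 to 5.77% of the listed TPM in B2, 4.63 to 4.75% in B2B1 and 3.53 to 4.28% in B1.

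**Figure D4:**
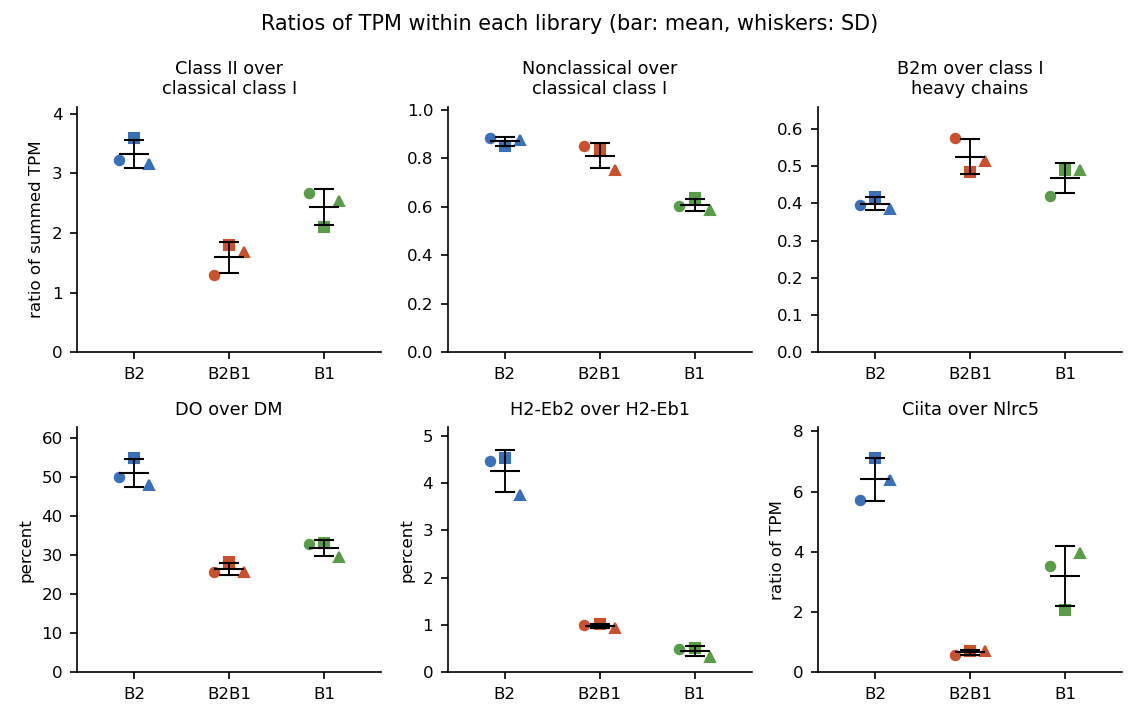
Ratios of TPM within each of the 9 libraries (points, circle for library 1, square for 2, triangle for 3), with the mean (bar) and SD (whiskers) of 3 libraries per group and axes from 0; DO over DM and H2-Eb2 over H2-Eb1 are in percent. Class II over classical class I and Ciita over Nlrc5 are lowest in B2B1, and nonclassical over classical class I is lowest in B1.

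Sorted by their calls in the 3 comparisons, the tested members fell into 8 patterns. The share of all genes with each pattern was not counted, so the patterns only list members. Both comparisons with B2 use the same B2 libraries, so a joint call in them is not independent. The most common, held by 12, was lower in both peritoneal groups than in B2 with no call between them (Cd74, Ciita, H2-Aa, H2-Ab1, H2-DMa, H2-DMb1, H2-DMb2, H2-Eb1, H2-Oa, H2-Q1, H2-T24 and H2-Ke6). The next, held by 8, was lower in B1 and higher in B2B1 than in B2 and higher in B2B1 than in B1 (H2-K1, H2-Q5, H2-Q7, H2-Q8, H2-Q9, H2-T22, Nlrc5 and Tapbp). B2m and H2-D1 were higher in B2B1 than in both other groups with no call between B1 and B2. H2-Eb2, H2-M3, H2-T10 and H2-K2 were lower in both peritoneal groups and lowest in B1.

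H2-K2 and H2-Ke6 bear the prefix but encode no MHC chain. H2-K2, a transcribed pseudogene beside H2-K1, was at 156 to 197 TPM in B2, 132 to 141 TPM in B2B1 and 96.4 to 116 TPM in B1. It was lower than in B2, at −0.75 ± 0.097 in B1 and −0.38 ± 0.097 in B2B1 (adjusted p = 0.000227 and 0.0074), the latter call lost under the median-of-ratios (−0.18) and quantile (−0.24) scalings. Between B2B1 and B1 its call (0.37 ± 0.097, adjusted p = 0.0307) was lost in 7 of the 20 alternatives, 5 of which left out B1 library 1 or 2 or any B2B1 library. H2-Ke6, another name of Hsd17b8, a hydroxysteroid dehydrogenase, was at 220.3 to 223 TPM in B2, 117 to 136 TPM in B2B1 and 127 to 152 TPM in B1, lower, at −0.81 ± 0.081 in B2B1 and −0.63 ± 0.081 in B1 (adjusted p = 3.38e-05 and 0.000227). Only 23.9% of its 31-base words stood in no other gene, so its level is uncertain.

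Of the members too low to test, only H2-M2 reached 1 TPM in a group, with 1.98, 0.759 and 0.804 TPM in the B2 libraries and means of 0.533 TPM in B2B1 and 0.856 TPM in B1. H2-L, H2-T9, H2-Q2, H2-Bl, H2-M5, H2-M10.2, H2-M10.3 and H2-M10.6 lay below 1 TPM in each group, as did H2-Ea-ps. H2-M1, H2-M9, H2-M11, H2-M10.1, H2-M10.4 and H2-M10.5 were listed at 0 in all 9 libraries. Transcripts of the M10 family were thus at or near 0 throughout, while H2-M3, of the same region, was at 79.8 TPM or more in every library.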

How the data were processed

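The gene table that the authors deposited holds TPM, made with CASAVA 1.8.2 and kallisto for the build mm10, per the submitters' processing notes. The sources used here do not give kallisto's version, its transcript set or the summing to genes. RNA came from RNeasy micro columns and was made into TruSeq libraries, per the labels' protocols. Libraries of listed genes sum to 894515 to 943043 TPM, 10711 to 10945 genes reach 1 TPM, and 0 pairs of libraries are identical. Because TPM keep no counts, no count model and no counting interval could be used. Immunoglobulin and mitochondrially encoded genes were not used here.

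Values were analysed as log2(TPM + 1), which understates changes of low genes, for the 11099 genes with a mean of at least 1 TPM. Limma 3.58.1 in R 4.3.3 (lmFit, contrasts.fit, eBayes with trend) fitted all 9 libraries in a single model with no covariate. Two-sided p-values were adjusted (Benjamini-Hochberg) within each comparison over all genes tested, and genes under 0.05 were called. Every member with a mean of at least 1 TPM is named, others are counted, and up to 4 called genes per further list and comparison are named by smallest adjusted p. Some genes that this rule names are not reported here. The members and lists were chosen with earlier results of these data known. Positions and 31-base words came from GENCODE M21 (GRCm38), and promoters from RefSeq (GRCm38.p6). The fit was tested on simulated data. Python 3.11.15 with matplotlib 3.10.9 drew the figures. Alternatives covered pseudocounts of 0.1 and 0.5, filters, scalings, the libraries fitted, a replicate block, library weights and leaving out each library. The Xist covariate and the sums of near-identical genes were added after the data had been seen.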

Additional observations from a re-analysis of the deposited data

How the results depend on the processing

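Of 108 member results (36 genes in 3 comparisons), 79 were called, and 61 of those kept their call in every one of the 20 alternatives run. Signs changed for 14 results, 0 of them called. With only the groups compared, 448 genes were higher and 681 lower in B2B1 than in B1, and with the Xist state as a covariate 342 and 500; without single libraries the lower genes ranged from 789 (without B1 library 1) to 1426 (without B1 library 2). Members, and class II and accessory chains, lower in B2B1 than in B1 became 2 with the listed genes rescaled to a common sum, where H2-DMb1 joined H2-Ob. Both counts ranged from 1 to 2 without single libraries, and class I chains from 0 to 1 (H2-T24, without B2B1 library 1). For the counts over all genes the cause was not tested.

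Signs turned as follows. With median-of-ratios scaling Cd74 was 0.030 and H2-T24 0.015 in B2B1 against B1, and H2-Q10 0.13, H2-T3 0.075 and Tap1 0.11 in B2B1 against B2. With quantile normalization H2-D1 was −0.085 in B1 against B2, H2-Eb1 −0.081 in B2B1 against B1, and H2-Q10 0.063, H2-Q4 −0.077, H2-T23 −0.25 and Tap1 0.033 in B2B1 against B2. With the rescaling H2-Eb1 was −0.0082 and Tapbpl −0.012 in B2B1 against B1. With the Xist covariate H2-D1 was −0.022 in B1 against B2 and H2-T3 0.055 in B2B1 against B2. Without single libraries Erap1 ranged from −0.032 to 0.17 and H2-D1 from −0.056 to 0.058 in B1 against B2. In B2B1 against B1 the ranges were −0.096 to 0.048 for Cd74, −0.20 to 0.014 for Ciita, −0.082 to 0.21 for H2-Aa, −0.17 to 0.040 for H2-Ab1, −0.097 to 0.14 for H2-Eb1, −0.37 to 0.13 for H2-T24 and −0.17 to 0.18 for Tapbpl. In B2B1 against B2 they were −0.19 to 0.068 for H2-Q10 and −0.35 to 0.031 for H2-T3.

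Pairing of libraries by replicate number was not apparent. Deviations of same-numbered libraries correlated at −0.058 to 0.12, and not every library correlated best with its own number. With 3 libraries per group this check is weak and cannot exclude a pairing. The replicate block gave 1962 higher and 3571 lower genes in B1 against B2, 2284 and 4571 in B2B1 against B2 and 670 and 1067 in B2B1 against B1; of member calls it ended that of Tapbp in B2B1 against B2 and added H2-Q6 there and H2-T23 in B2B1 against B1. In B2B1 against B1, calls were also added for H2-T3 in 5 alternatives, and in B2B1 against B2 for Tap2 in 5, Erap1 in 4 and Tapbpl without B2B1 library 3. Sums of near-identical genes were fitted once, with no further alternatives. TPM without counts leave the precision of low members unknown.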
